A study of Mus musculus with 12 samples.

Results

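The natriuretic peptide genes and their receptors were examined in the ventricular wall of mice that had lost Sdhaf4, the factor that assists assembly of succinate dehydrogenase, complex II of the respiratory chain. The 6 genes were chosen by name: the peptide genes Nppa and Nppb, the peptide-processing protease gene Corin, and the receptor genes Npr1, Npr2 and Npr3. Each name matched 1 row, so that 6 of the 43686 rows of the deposited table were described. The controls, called WT, were 6 Sdhaf4fl/fl mice without a Cre transgene. The mutants, called KO, were 6 Sdhaf4fl/fl mice carrying Ckmm-Cre, in which the muscle creatine kinase promoter drives Cre and the floxed alleles are lost in cardiac and skeletal muscle. The sample labels name the mutants Sdhaf4-/- and do not mention the Cre, and since no WT mouse carried Cre, an effect of Cre itself and of the deletion cannot be told apart. All 12 mice were C57BL/6 and, by the labels, 2 months old. The paper's text gives a younger age. This promoter is active in muscle cells, while the RNA came from all the cells of the ventricular wall.

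Nppa encodes atrial natriuretic peptide (ANP) and Nppb encodes brain natriuretic peptide (BNP), hormones that the heart secretes when its walls are stretched and that lower blood volume and pressure. Corin is a protease on the cardiomyocyte surface that cuts pro-ANP into its active form. ANP and BNP bind the receptor encoded by Npr1, whose intracellular domain makes cyclic GMP (cGMP), and C-type natriuretic peptide binds the related receptor encoded by Npr2. The receptor encoded by Npr3 lacks the cyclase domain and removes all these peptides from the circulation. In the adult mouse Nppa is known as a gene of the atria that is also expressed in the ventricles of the fetus and of the failing heart.

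Sdhaf4 itself was examined first as a check of the labels. Its normalised read count, in CPM (counts scaled to the normalised library total), was 25.2 ± 5.80 in WT (SD, n = 6) and 2.40 ± 0.170 CPM in KO, and the highest KO library, at 2.73 CPM, lay below the lowest WT library, at 14.3 CPM. Library totals were between 23747014 and 27159228 counts in WT and between 26542930 and 31393393 in KO. KO replicate 3 lay nearest to WT, among the KO libraries, for Nppa, Nppb and Corin, although its Sdhaf4 level was 2.25 CPM. It was the lowest of all 12 libraries for Npr1 but the highest for Npr3, where it lay farthest from WT. Results are therefore given without it wherever it alters a call.

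Nppa and Nppb rose together, Npr3 rose, Corin fell, and Npr1 and Npr2 did not pass the test. The change was largest for Nppa, which rose 50.4-fold. Nppb rose 5.90-fold and Npr3 1.83-fold, and Corin was 1.83-fold lower. With edgeR's quasi-likelihood test and an adjusted p of 0.05 over 17155 tested rows, 3 of the 6 genes were higher in KO, against 25.6% of all rows, and 1 was lower, against 25.5% of all rows. Nppa and Nppb also passed a stricter pair of thresholds, an adjusted p of 0.005 with an absolute log2 fold change over 1, which 10.2% of all rows passed. In 4 of the 6 genes no KO library overlapped any WT library, as was the case for 30.1% of all rows. The median log2 fold change was 0.52 over the 6 genes and 0.00 over all rows tested. Without KO replicate 3, 4 of the 6 genes were higher, Npr1 being added. Because bulk RNA was measured, fewer cells of a type and less RNA per cell cannot be told apart.

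**Figure D1:**
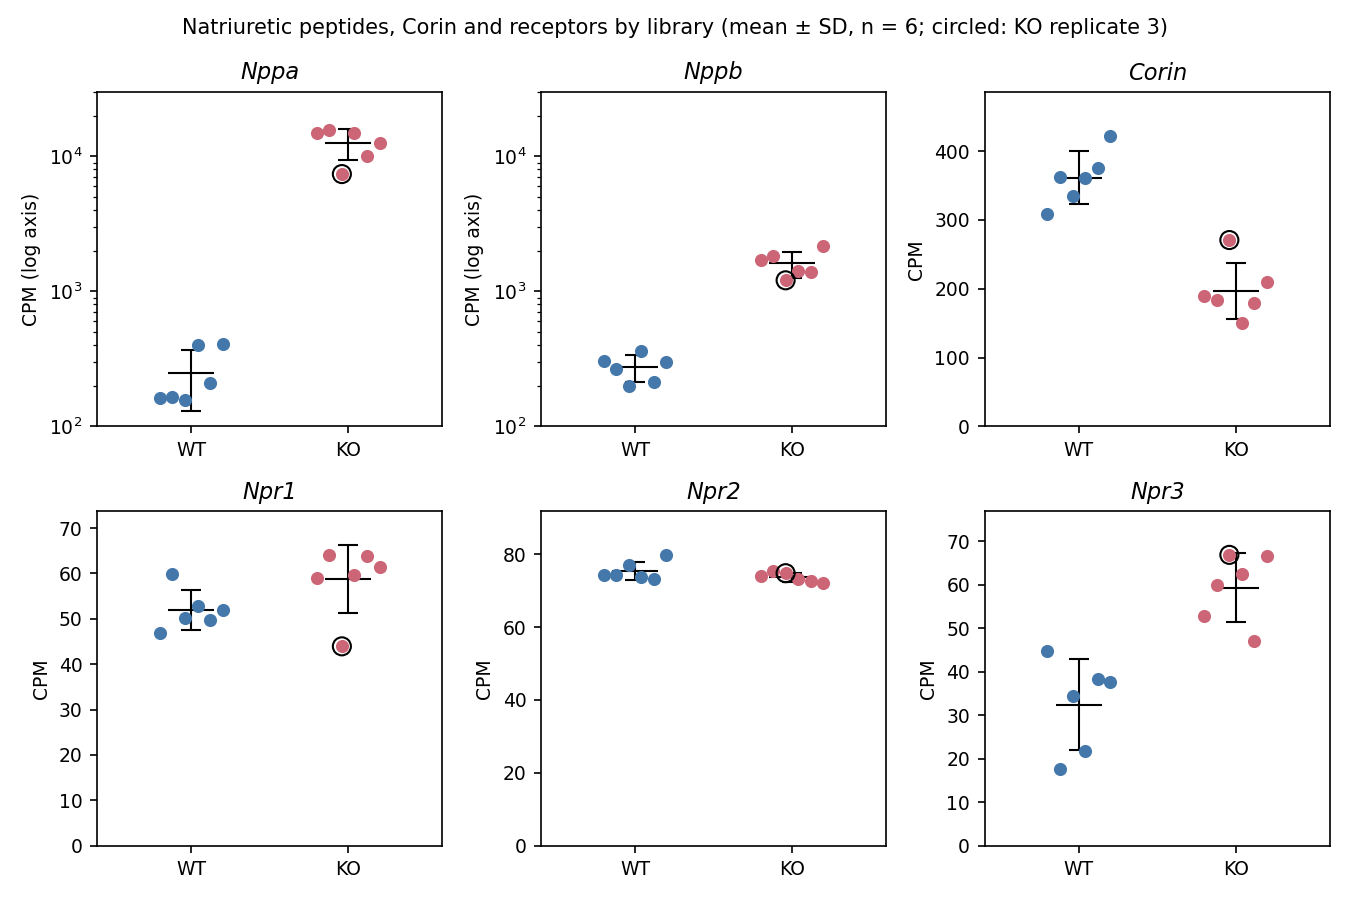
Normalised read counts (CPM, vertical axis) of the 6 genes in each WT (blue) and KO (red) library, with black bars for the mean ± SD of 6 libraries, a log axis for Nppa and Nppb and a linear axis from 0 for the others. The groups are apart for Nppa, Nppb, Corin and Npr3 and overlap for Npr1 and Npr2, and the circled KO replicate 3 is the lowest KO library for Nppa (7399 CPM), Nppb (1209 CPM) and Npr1 (43.9 CPM).

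Nppa (MGP_C57BL6NJ_G0029543) is the gene of the forward strand at chr4:157217801-157219158 in the coordinates of the deposited table, which follow the C57BL/6NJ assembly. In the WT libraries, in the order of replicates 1 to 6, Nppa was at 164, 165, 156, 398, 210 and 408 CPM. WT replicates 4 and 6 stood above the other 4 WT libraries, and the coefficient of variation in WT was 48.0%. In the KO libraries Nppa was at 14892, 15655, 7399, 14901, 10076 and 12639 CPM. Every KO library exceeded every WT library, and the lowest KO library, replicate 3, was still far above the highest WT library. The means were 250.0 ± 120 CPM in WT and 12594 ± 3265 CPM in KO (SD, n = 6), a log2 fold change of 5.65 (SE 0.37, edgeR adjusted p = 2.02e-07). The 95% interval of the fold was 30.5 to 83.3, and Nppa ranked 14 of 17155 rows by log2 fold change.

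The scale of the Nppa increase was also seen in its share of all counted reads. In WT, 3872 to 10681 reads of a library fell on Nppa, or 0.0154% to 0.0419% of its counts. In KO, 223458 to 463618 reads did, or 0.712% to 1.57%. Counting error was small beside the spread between mice, since the 95% Wilson interval was 0.0149% to 0.0158% for the lowest WT library and 0.709% to 0.715% for the lowest KO library (intervals cover counting error alone). By FPKM, which divides the reads by gene length and library size, Nppa was 289 ± 141 in WT and 14614 ± 3995 in KO (SD, n = 6). It ranked between 186 and 496 among 20495 named rows in the WT libraries and between 1 and 4 in the KO libraries.

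A row without a gene name (MGP_C57BL6NJ_G0004112) lies on the opposite strand and overlaps Nppa by 989 bases. Its counts were 246 to 788 in WT and 19090 to 32356 in KO, which equalled 6.21% to 7.38% of the Nppa count in WT and 5.46% to 9.23% in KO. Its log2 fold change was 5.61 (SE 0.36, edgeR adjusted p = 2.02e-07), close to that of Nppa. Whether the counting used strand is not stated, so reads of Nppa and of this antisense row cannot be told apart. When both rows were summed, the log2 fold change of Nppa was again 5.65. The antisense row is small beside Nppa and changed alike, so this sum could hardly differ. It does not show to which row the reads belong.

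Nppb (MGP_C57BL6NJ_G0029542) lies at chr4:157193576-157194993, also on the forward strand, 22807 bases before Nppa. In WT replicates 1 to 6 Nppb was at 305, 267, 198, 365, 212 and 298 CPM. In KO replicates 1 to 6 it was at 1694, 1816, 1209, 1420, 1381 and 2185 CPM. The groups did not overlap, and the 2 genotypes varied alike, with coefficients of variation of 22.7% in WT and 21.9% in KO. Mean Nppb was 274 ± 62.3 CPM in WT and 1618 ± 355 CPM in KO (SD, n = 6), and its log2 fold change was 2.56 (SE 0.18, edgeR adjusted p = 1.03e-07), with a 95% interval of the fold from 4.63 to 7.53. By FPKM, Nppb was 351 ± 80.8 in WT and 2070 ± 442 in KO, and its rank among the named rows moved from between 201 and 359 to between 16 and 31.

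The balance of the peptide transcripts shifted toward Nppa. In WT the FPKM of Nppa was 0.485 to 1.24 times that of Nppb, so that neither gene was above the other in all libraries. In KO it was 5.22 to 9.47 times that of Nppb. The antisense row overlaps Nppa and not Nppb, and the strand setting is not known. These levels of Nppa relative to Nppb may therefore be affected by how shared reads were counted. The log2 ratio of their counts increased by 3.17 (SE 0.25), a 9.0-fold change (exact permutation test, two-sided, p = 0.00216, the smallest that 6 against 6 libraries can give, adjusted p = 0.00325 over 6 ratios). Nppa and Nppb therefore both increased, but Nppa increased by a greater factor in these libraries.

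The 250 bases before the annotated starts of Nppa and Nppb are shown because these genes changed most and lie next to each other. All 6 genes matched a promoter in the RefSeq table of build GRCm38.p6, which is another assembly than that of the counts. The Nppa window is chr4:148000472-148000721 and the Nppb window is chr4:147985650-147985899, both on the forward strand and written 5′ to 3′. Capitals mark 3 motifs on either strand: TATAAA, which positions the start of transcription in many promoters, GATA, the core that the zinc finger factors of that name recognise, and CATTCC, the M-CAT element bound by TEAD factors.
Nppa: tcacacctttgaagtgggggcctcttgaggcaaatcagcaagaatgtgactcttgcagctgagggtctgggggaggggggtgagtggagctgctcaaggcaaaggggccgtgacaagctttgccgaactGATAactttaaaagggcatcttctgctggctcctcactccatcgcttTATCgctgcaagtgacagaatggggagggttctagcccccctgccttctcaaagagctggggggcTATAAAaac
Nppb: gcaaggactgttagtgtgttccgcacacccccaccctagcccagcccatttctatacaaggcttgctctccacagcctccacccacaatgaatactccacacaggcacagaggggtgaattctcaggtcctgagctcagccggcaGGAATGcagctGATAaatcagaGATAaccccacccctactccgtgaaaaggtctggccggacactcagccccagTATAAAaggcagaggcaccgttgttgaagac
Both windows hold TATAAA, 9 to 4 bases before the annotated start in Nppa and 31 to 26 bases before it in Nppb, and 12.4% of 32851 promoter windows of the same length hold these letters. Both hold GATA in 2 places, as do 53.6% of all windows at least once. In Nppa these begin 121 bases before the start on the forward strand and 74 bases before it on the reverse strand. In Nppb they begin 94 and 83 bases before the start. Nppb also holds CATTCC on the reverse strand, 105 to 100 bases before the start, and 12.6% of all windows hold it. The core AAGTG, known from NKX2-5 sites, occurs in Nppa at 239 and 65 bases before the start (40.7% of all windows), and the T-box core AGGTGT occurs on its reverse strand at 248 bases (11.8%). The E-box CANNTG occurs in Nppa at 195 and 66 bases, the latter overlapping an AAGTG core, and in Nppb at 99 bases, sharing 1 base with a GATA core (66.2% of all windows). Both strands were also searched for the AP-1 element TGANTCA (6.75% of all windows), the hypoxia response core ACGTG (16.6%) and the CArG box of SRF (1.47%), whose letters are not in these 2 windows. A match describes the letters and does not show binding.

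The genes beside the locus changed far less. Among 5 named genes beside it, Clcn6, a chloride-proton exchanger gene that lies just after Nppa, rose by 0.32 on the log2 scale (SE 0.06, edgeR adjusted p = 0.00048), from a mean of 17.3 to 21.6 CPM. Mfn2, which encodes a mitochondrial fusion protein, rose by 0.17 (adjusted p = 0.0349), Plod1 by 0.23 (adjusted p = 0.0330) and Agtrap by 0.12 (adjusted p = 0.0381). The log2 fold change of 2510039O18Rik, at 0.08 (adjusted p = 0.244), did not pass the test. Of these 5 neighbours, Clcn6 alone had groups that did not overlap.

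**Figure D2:**
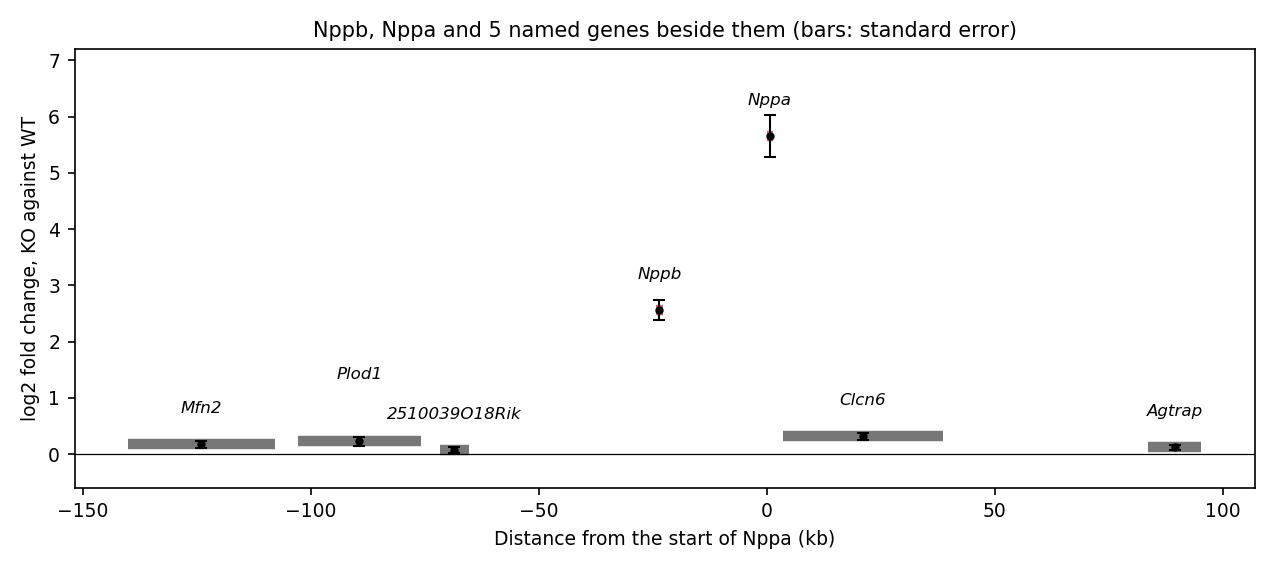
Log2 fold change of KO against WT (vertical axis, bars for the SE) of Nppb, Nppa and 5 named genes beside them, placed by distance from the start of Nppa in kilobases, with grey bars spanning each neighbour from end to end. Nppa (5.65) and Nppb (2.56) stand above the 5 neighbours, which lie between 0.08 and 0.32.

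Corin (MGP_C57BL6NJ_G0030042, reverse strand, chr5:75202926-75431880) went the other way from its substrate. It was at 309, 363, 335, 361, 376 and 422 CPM in WT replicates 1 to 6 and at 190, 183, 271, 150, 179 and 209 CPM in KO replicates 1 to 6. All KO libraries lay below all WT libraries, and KO replicate 3 was the nearest to WT. Mean Corin was 361 ± 38.5 CPM in WT and 197 ± 41.0 CPM in KO (SD, n = 6), and its log2 fold change was -0.87 (SE 0.12, edgeR adjusted p = 2.77e-05). Without KO replicate 3 the log2 fold change was -0.99 (adjusted p = 1.08e-07).

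Relative to the peptide transcripts, Corin changed by more than it did alone. The ratio of Corin to Nppa counts was 98.9-fold lower in KO, a difference of -6.63 on the log2 scale (SE 0.35), and that of Corin to Nppb counts was 11.0-fold lower, a difference of -3.46 (SE 0.24). Both had the smallest p that the exact permutation test allows (0.00216, two-sided, adjusted p = 0.00325 over 6 ratios). This p followed from the levels of the single genes and adds no separate support. Every KO library was already lower for Corin and higher for both peptide genes than every WT library. In FPKM, Corin was 0.282 to 0.682 times the level of Nppa in WT and 0.00311 to 0.0113 times in KO. These levels depend on the length used for Corin, 2789 bases by the deposited FPKM and 4862 bases in the length column. The change between genotypes does not depend on it.

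**Figure D3:**
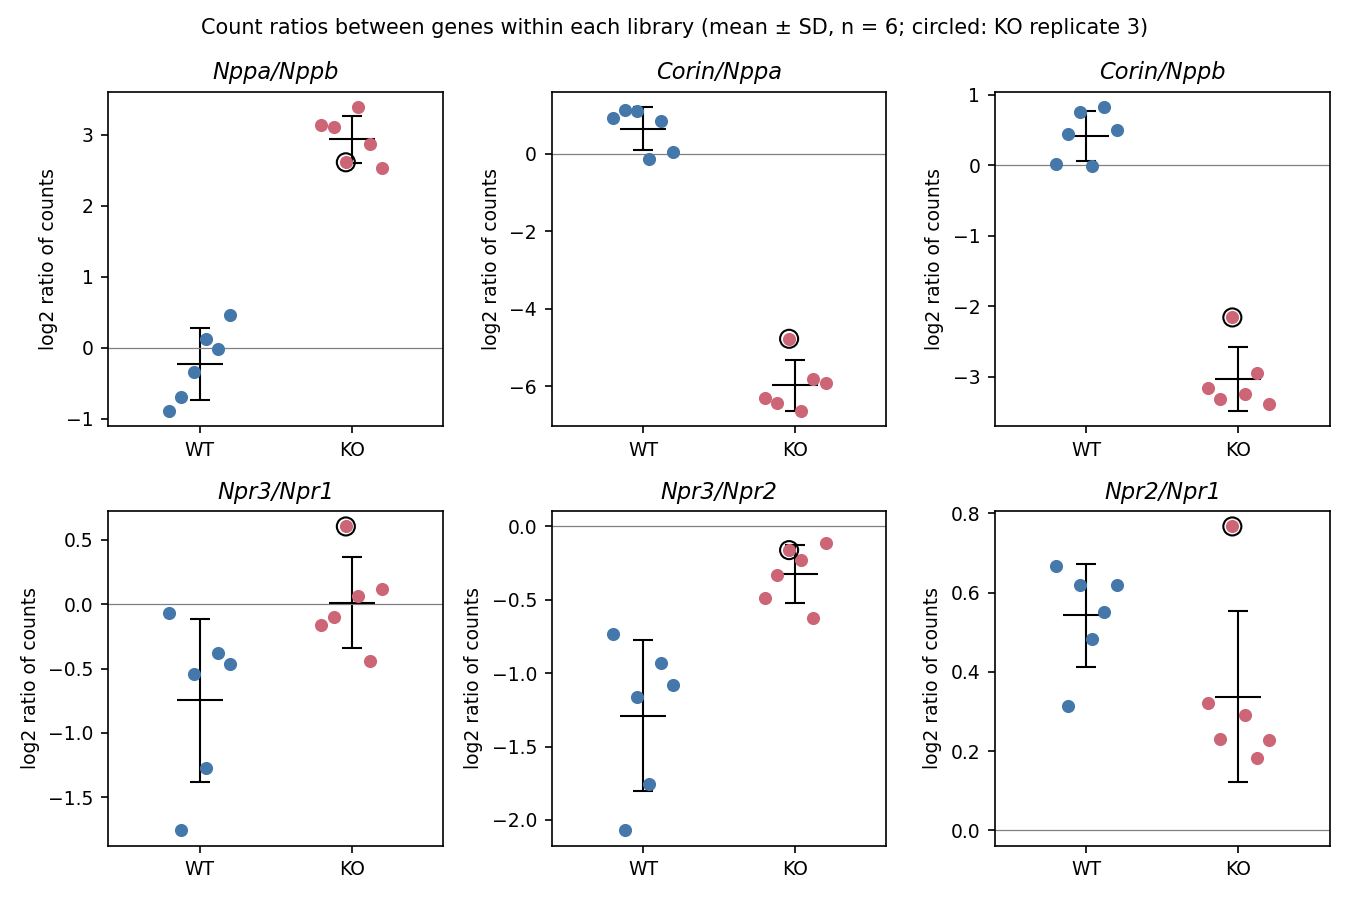
Log2 ratio of the counts of 2 genes within each library (vertical axis, 6 WT libraries in blue, 6 KO in red, black bars for the mean ± SD, KO replicate 3 circled). The groups are apart for Nppa/Nppb, Corin/Nppa, Corin/Nppb and Npr3/Npr2 and overlap for Npr3/Npr1 and Npr2/Npr1.

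Of the receptors, Npr3 was the gene that changed. Npr3 (MGP_C57BL6NJ_G0022138, reverse strand, chr15:9378210-9450229), the clearance receptor gene, was at 44.7, 17.7, 34.5, 21.8, 38.3 and 37.7 CPM in WT replicates 1 to 6. In KO replicates 1 to 6 it was at 52.8, 59.8, 66.8, 62.5, 47.1 and 66.6 CPM. The groups did not overlap, but the gap was narrow, from 44.7 CPM in the highest WT library to 47.1 CPM in the lowest KO library, and WT varied more (coefficient of variation 32.2%) than KO (13.3%). Mean Npr3 was 32.4 ± 10.5 CPM in WT and 59.3 ± 7.90 CPM in KO (SD, n = 6), and its log2 fold change was 0.87 (SE 0.21, edgeR adjusted p = 0.00408), with a 95% interval of the fold from 1.38 to 2.42.

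Npr3 is known from endocardial cells and is also found in other non-muscle cells, so the marker lists of these cells are given beside it. The summed level of 6 endocardial markers was 124 to 186 CPM in WT and 239 to 301 CPM in KO, without overlap. Of the 5 of these that were tested, 2 rose and 2 fell, against 25.6% and 25.5% of all rows. Plvap (log2 fold change 1.70, from a mean of 9.21 to 29.9 CPM) and Vwf (1.08, from 97.5 to 206 CPM) rose. Vwf made up most of the sum in both genotypes, so the sum mainly follows this gene. Cytl1 (-1.83) and Nfatc1 (-0.26) fell, and Tmem108 did not pass the test, while Hapln1 was at most 0.21 CPM in every library. The summed level of 8 fibroblast markers was 1509 to 1754 CPM in WT and 2357 to 4346 CPM in KO, also without overlap, and 7 of the 8 rose, among them Col1a1 (1.88) and Pdgfra (0.87), while Dpt fell (-0.46), against 25.6% of all rows that rose and 25.5% that fell. The part of these lists in the Npr3 difference was not tested.

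Npr1 (MGP_C57BL6NJ_G0027883, reverse strand, chr3:94172625-94187879), the ANP and BNP receptor gene, did not pass the test with all libraries. It was at 46.8, 59.8, 50.2, 52.7, 49.8 and 51.9 CPM in WT replicates 1 to 6 and at 59.1, 64.1, 43.9, 59.7, 63.9 and 61.4 CPM in KO replicates 1 to 6. The groups overlapped through WT replicate 2, which was the highest WT library, and KO replicate 3, which was the lowest of all 12. The means were 51.9 ± 4.39 and 58.7 ± 7.53 CPM (SD, n = 6), a log2 difference of 0.18 (SE 0.08, edgeR adjusted p = 0.0843). Without KO replicate 3 the log2 fold change was 0.24 (adjusted p = 0.00197), and without WT replicate 2 it was 0.22 (adjusted p = 0.0362), so the call for Npr1 rested on these libraries.

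Npr2 (MGP_C57BL6NJ_G0028634, forward strand, chr4:43325902-43345209), the receptor gene for C-type natriuretic peptide, was the steadiest of the 6 genes. It was at 74.3, 74.4, 77.0, 73.7, 73.1 and 79.8 CPM in WT replicates 1 to 6 and at 73.9, 75.2, 74.8, 73.1, 72.6 and 72.0 CPM in KO replicates 1 to 6. The coefficient of variation was 3.38% in WT and 1.72% in KO. The log2 difference was -0.03 (SE 0.04, edgeR adjusted p = 0.495), and its 95% interval ran from -0.11 to 0.04. Nppc, which encodes the C-type peptide, was at most 0.04 CPM in every library and was not tested.

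Per length, the order of the receptor transcripts was the same in both genotypes. In FPKM, Npr2 was 48.3 ± 2.37 in WT and 47.2 ± 1.41 in KO, Npr1 was 35.9 ± 3.50 and 40.8 ± 5.80, and Npr3 was 4.66 ± 1.5 and 8.52 ± 1.02 (SD, n = 6). The ranges of neighbours in this order did not overlap within a genotype, although in KO the highest Npr1 library, at 44.8 FPKM, nearly reached the lowest Npr2 library, at 45.0 FPKM. Corin was above the receptors at 129 ± 15.5 FPKM in WT and 70.3 ± 12.8 FPKM in KO. The deposited FPKM of Npr1, Npr2 and Corin imply lengths of 1443, 1560 and 2789 bases, whereas the table's length column gives 4066, 3660 and 4862 bases. With the length column Npr2 was at 20.6 in WT and 20.1 in KO on the scale of FPKM, Npr1 at 12.8 and 14.5 and Npr3 at 4.66 and 8.52, so that the order was kept and the distances were not.

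Npr3 therefore took a larger mean share of the receptor transcripts in KO, with overlap between the genotypes. Its share ran from 2.77% to 7.43% in WT and from 6.94% to 10.9% in KO. The Npr2 share overlapped too, since KO replicate 3, at 54.5%, lay within the WT range of 52.0% to 55.4%. Of the summed receptor FPKM, Npr3 made up 5.27% ± 1.75 in WT and 8.88% ± 1.41 in KO (SD, n = 6, exact permutation test, two-sided, adjusted p = 0.0130 over 3 shares). The share of Npr2 was 54.3% ± 1.28 in WT and 49.0% ± 2.78 in KO (exact permutation test, adjusted p = 0.0130), where a lower share does not need a lower Npr2 level, since the shares sum to the whole. The share of Npr1 was 40.4% ± 2.79 in WT and 42.1% ± 3.8 in KO (exact permutation test, adjusted p = 0.403). The count ratio of Npr3 to Npr2 rose by 0.97 on the log2 scale (SE 0.23, exact permutation test, adjusted p = 0.00325 over 6 ratios). That of Npr3 to Npr1 rose by 0.76 (SE 0.30, exact permutation test, adjusted p = 0.0234). With Npr2 nearly unchanged, the ratio to Npr2 largely restates the Npr3 level and adds no separate support. The ratio of Npr2 to Npr1 differed by -0.20 (SE 0.10, exact permutation test, adjusted p = 0.0758) and did not pass with all libraries. Without KO replicate 3 that difference was -0.29 (exact permutation test, adjusted p = 0.0104), and without WT replicate 2 it was -0.25 (adjusted p = 0.0390).

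**Figure D4:**
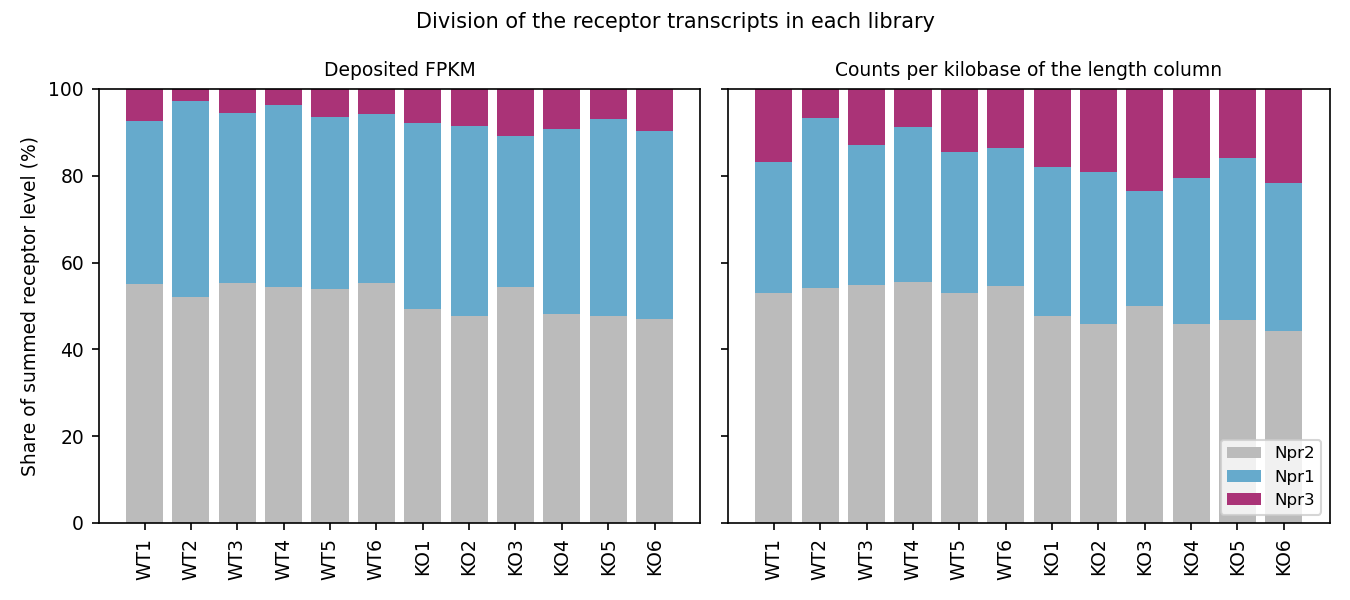
Share of Npr2 (grey), Npr1 (blue) and Npr3 (purple) in the summed receptor level of each library in percent, from the deposited FPKM (left) and from counts per kilobase of the length column (right). The Npr3 share averages 5.27% in WT and 8.88% in KO on the left and 12.2% and 19.8% on the right.

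Atrial tissue in the samples was looked for because Nppa is abundant in the atria. Among 8 atrial cardiomyocyte markers, Myl7, Sln and Bmp10 were at or near 0 in every library, with a highest value of 0.29 CPM. The part of atrial tissue in the Nppa difference was not tested. The summed level of the 8 markers was 81.3 to 97.7 CPM in WT and 47.6 to 68.0 CPM in KO, which is lower in KO and without overlap. Most of the WT sum came from Kcnj3 and Stard10, so its fall follows these genes and not the list as a whole. Of the 4 that were tested, 2 rose and 2 fell, against 25.6% and 25.5% of all rows. Kcnj3 (log2 fold change -1.54, from a mean of 57.3 to 19.6 CPM) and Stard10 (-2.06, from 25.6 to 6.17 CPM) fell. Myl4 (0.72, from 2.12 to 3.49 CPM) and Dkk3 (3.21, from 3.17 to 29.3 CPM) rose, while Fgf12 was at most 0.73 CPM. The summed level of 10 ventricular cardiomyocyte markers was 54649 to 60191 CPM in WT and 46908 to 64212 CPM in KO, with KO replicate 3 highest. Of these 10, 5 fell and 1 rose, against 25.5% and 25.6% of all rows. Myl2 (-0.31), Myl3 (-0.30), Tnni3 (-0.89), Ryr2 (-0.50) and Pln (-0.79) fell and Mybpc3 (1.05) rose.

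The other lists moved less clearly. Their counts are set against the 25.6% of all rows that rose and the 25.5% that fell. Of 8 endothelial markers 5 rose and 1 fell, with sums of 1574 to 1742 CPM in WT and 1725 to 2034 CPM in KO. Of 8 pericyte and smooth muscle markers 2 rose and 2 fell, at the background, and of 5 macrophage markers tested 2 fell and none rose, with sums that overlapped between the genotypes. Neither of the 2 red blood cell markers tested passed, and their sums overlapped. The 4 adipocyte markers summed to at most 0.69 CPM and the 5 skeletal muscle markers to at most 10.2 CPM in any library, and of these Mylpf fell (-1.81). The part of these lists in the differences of the peptide and receptor genes was not tested.

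The wider pathway was examined in 5 lists of 46 genes around the peptides, of which 40 were tested. Of these 20 rose, 7 fell and 13 did not pass the test, with a median log2 fold change of 0.22 against 0.00 over all rows. Over all rows tested, 25.6% rose and 25.5% fell, and each list's counts below are to be read against these shares. Without KO replicate 3, 19 rose and 7 fell. The lists are described by their members in what follows.

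Among enzymes that process or degrade the peptides, 2 of 5 tested genes fell and 1 rose (median log2 fold change -0.26), against 25.5% and 25.6% of all rows, so the number of calls was near the background. Mme, which encodes neprilysin, the protease that degrades ANP and other peptides, fell from 14.0 ± 3.14 CPM, with libraries between 9.78 and 17.6 CPM, to 2.56 ± 0.874 CPM, with libraries between 1.70 and 4.05 CPM (SD, n = 6). Its log2 fold change was -2.45 (SE 0.21, edgeR adjusted p = 1.29e-07). Pcsk6, which encodes the convertase that activates corin, was at 85.2 ± 11.4 CPM in WT and 59.3 ± 10.3 CPM in KO, with a log2 fold change of -0.52 (SE 0.11, adjusted p = 0.00153), and its groups did not overlap, with 73.9 CPM in the lowest WT library and 73.8 CPM in the highest KO library. Ide, which encodes insulin-degrading enzyme, rose by 0.26 on the log2 scale (SE 0.05, adjusted p = 0.000154). Furin, whose product cuts pro-BNP, had a log2 difference of -0.07 (adjusted p = 0.440), and Dpp4 one of -0.26 (adjusted p = 0.454). Ostn, which encodes a ligand of the clearance receptor, was at most 0.16 CPM in every library.

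In a list of cGMP kinases, their effectors and inhibitory G proteins, 5 of 8 tested genes rose and 1 fell (median log2 fold change 0.28). Over all rows these shares were 25.6% and 25.5%. The G protein genes Gnai1, Gnai2 and Gnai3, which are not effectors of cGMP, were among the 5 that rose. Prkg1, the gene of the cGMP-dependent protein kinase of the heart, rose from 11.0 ± 1.23 to 20.8 ± 1.17 CPM (SD, n = 6), with 12.4 CPM in the highest WT and 19.3 CPM in the lowest KO library, a log2 fold change of 0.92 (SE 0.08, edgeR adjusted p = 6.64e-08). Rgs2, which encodes a regulator of G protein signalling that this kinase activates, went down from 96.7 ± 26.7 CPM in WT to 32.6 ± 5.56 CPM in KO (log2 fold change -1.57, SE 0.19, adjusted p = 2.35e-05), without overlap. Vasp, a substrate gene of the kinase, rose by 0.34 (adjusted p = 0.0125). The inhibitory G protein genes Gnai1, Gnai2 and Gnai3, to whose products the Npr3 receptor couples, rose by 0.29, 0.27 and 0.33 on the log2 scale (adjusted p = 0.0340, 0.000211 and 0.00165). Prkg2, at under 1 CPM, and Mrvi1 did not pass the test, and Kcnma1 was too low to be tested.

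Among the phosphodiesterases, which break down cyclic nucleotides, 4 of 8 tested genes rose and 1 fell (median log2 fold change 0.31), against 25.6% and 25.5% of all rows. The calls of both directions together were near the background, with more rises and fewer falls. Pde1a rose by 0.87 (SE 0.11) and Pde1c by 0.54 (SE 0.09), both encoding calcium-dependent enzymes, and both without overlap of the groups. Pde10a rose by 1.14 (SE 0.23) from 3.40 to 7.52 CPM, and Pde3b by 0.42 (SE 0.15). Pde3a, which encodes an enzyme inhibited by cGMP, went down from 143 ± 11.4 CPM in WT to 87.3 ± 8.20 CPM in KO (SD, n = 6), with a log2 fold change of -0.71 (SE 0.07, edgeR adjusted p = 1.90e-07). Pde5a and Pde9a, whose products are selective for cGMP, had log2 differences of 0.21 (adjusted p = 0.402) and 0.03 (adjusted p = 0.90). Pde1b did not pass the test, and Pde2a was not analysed here.

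The nitric oxide branch, which makes cGMP through soluble guanylate cyclase, had 5 tested genes, of which 2 rose and 1 fell (median log2 fold change 0.13), again near the background of 25.6% and 25.5% of all rows. The cyclase subunit genes Gucy1a1 and Gucy1b1, named Gucy1a3 and Gucy1b3 in the table, rose by 0.24 (edgeR adjusted p = 0.0376) and 0.27 (adjusted p = 0.00133) on the log2 scale, while Gucy1a2 did not pass. Nos2, the inducible nitric oxide synthase gene, went down from 11.6 ± 2.37 CPM in WT to 4.70 ± 0.904 CPM in KO (SD, n = 6), with a log2 fold change of -1.31 (SE 0.15, adjusted p = 1.69e-06). Nos3, the endothelial synthase gene, had a log2 difference of 0.13 (adjusted p = 0.301). Nos1, the neuronal synthase gene, was too low to be tested, at no more than 0.04 CPM in WT and between 0.26 and 1.17 CPM in KO.

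Of 14 genes of transcription factors known from the Nppa or Nppb promoter, 8 rose and 2 fell (median log2 fold change 0.24), against 25.6% and 25.5% of all rows. Gata4 went up from 111 ± 9.03 CPM in WT to 171 ± 8.70 CPM in KO (SD, n = 6), with a log2 fold change of 0.63 (SE 0.06, edgeR adjusted p = 9.71e-08), with 128 CPM in the highest WT and 161 CPM in the lowest KO library. Tbx20 rose by 0.64 (SE 0.08), Tead1, which encodes a TEAD factor, by 0.56 (SE 0.07) and Nkx2-5 by 0.49 (SE 0.08), all without overlap of the groups. Tbx2 (0.42), Srf (0.26), Myocd (0.24) and Rest (0.25), the last encoding a repressor, rose with overlapping groups. Mef2a (-0.17) and Mef2d (-0.23) fell, and Gata6, Tbx3, Tbx5 and Mef2c did not pass the test. These rises were all smaller than those of Nppa and Nppb on the log2 scale.

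**Figure D5:**
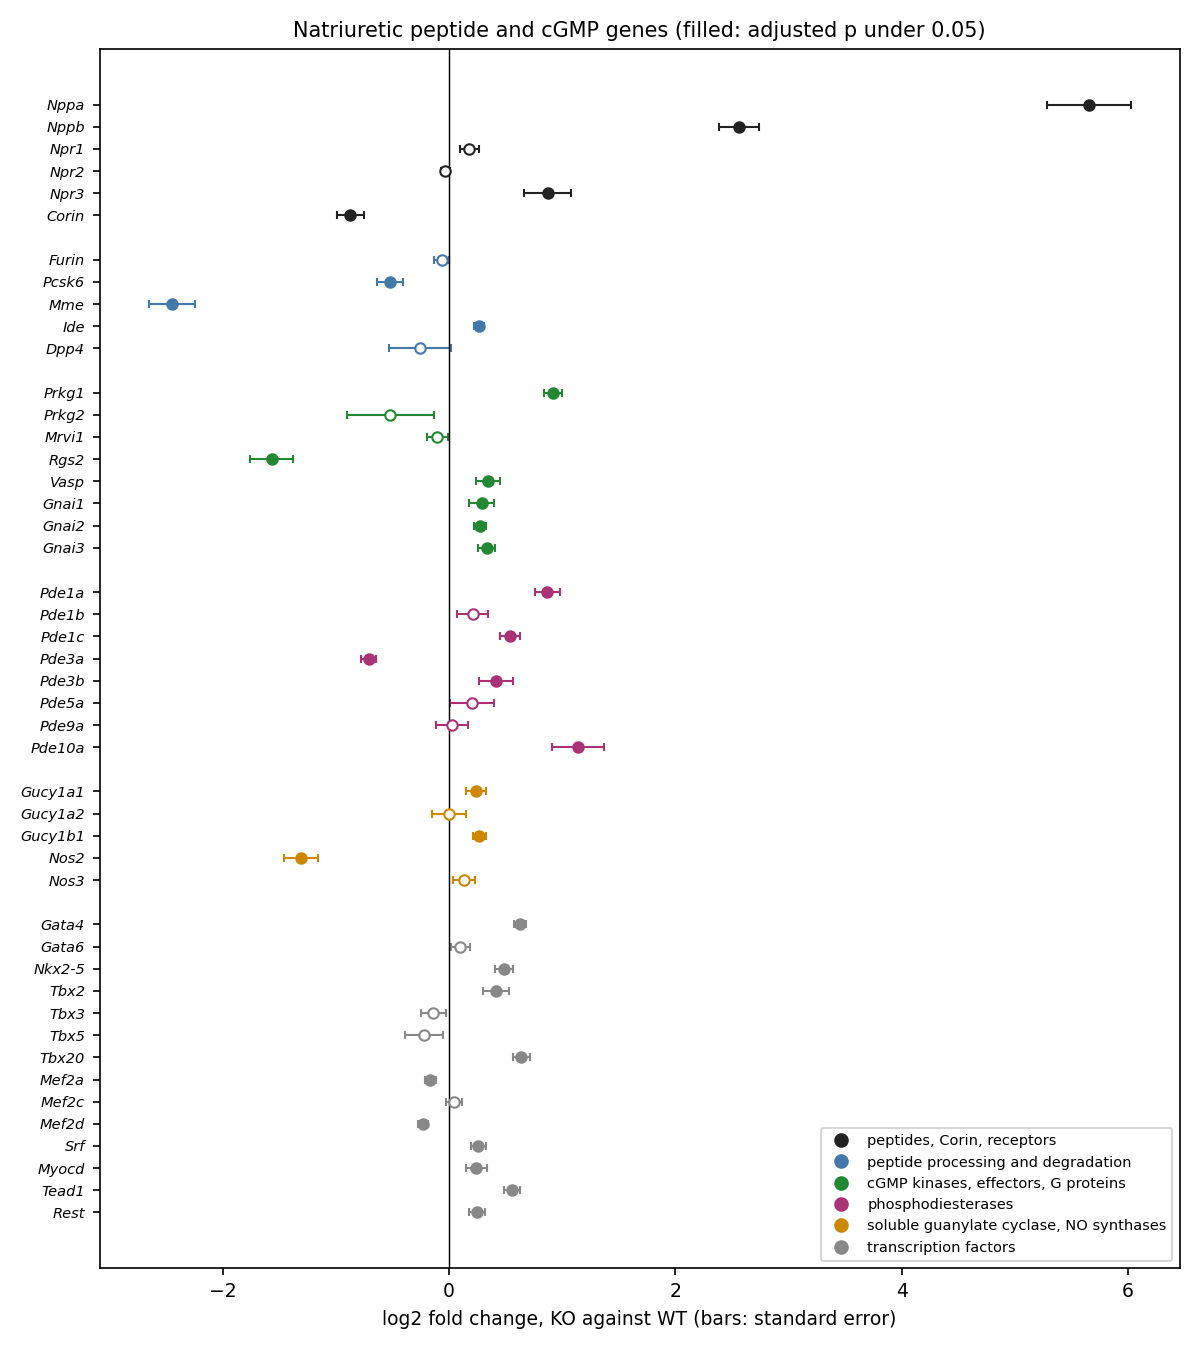
Log2 fold change of KO against WT (horizontal axis, bars for the SE) of the 6 peptide, protease and receptor genes and of the 40 tested genes of the 5 pathway lists, coloured by list, with filled points for an edgeR adjusted p under 0.05. Nppa and Nppb lie farthest to the right, at 5.65 and 2.56, and Mme and Rgs2 farthest to the left, at -2.45 and -1.57.

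For each of the 6 genes, the named genes whose levels followed it most closely within the genotypes were found by correlating log2 CPM over 12 libraries after each genotype's mean was removed, among 10250 rows with a mean of at least 5 CPM. For Nppa these were Stxbp3 (r = 0.92), Plpp6 (0.87) and Sulf2 (0.86). For Nppb they were Ankrd1 (0.90), Arid3b (0.89) and Flnc (0.87), of which Ankrd1 rose by 3.08 and Flnc by 1.34 on the log2 scale between genotypes. For Corin they were Ubr3 (0.91), Tmod1 (0.90) and Hhatl (0.90). For Npr1 they were Zc3h12c (0.90), 1110002E22Rik (0.90) and Ppme1 (0.89), for Npr2 they were Rnf20 (0.89), Gtf2h3 (0.87) and Slc8a1 (0.85), and for Npr3 they were Faim (0.94), Smoc1 (0.86) and St3gal4 (0.84). These are the highest of many correlations over few libraries, which share depth and KO replicate 3, and are given as a description. By the same measure Nppa and Nppb had r = 0.62 with each other.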

How the data were processed

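Poly-A mRNA from the ventricular wall of 6 WT and 6 KO mice was sequenced. The authors aligned the reads and deposited raw counts per gene from HTSeq (strand setting not given in the sources used here), FPKM per library and their own DESeq fold changes, p-values and group means, which were not used. The submitters' processing notes name HISAT2 2.0.5 and mm10, but the row identifiers, and coordinates that run past the ends of the GRCm38 chromosomes, are those of C57BL/6NJ.

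Of 43686 rows, 27883 had a count. Rows were filtered with filterByExpr (17155 kept), normalised by TMM and tested with edgeR 4.0.16 (R 4.3.3), using the robust quasi-likelihood test with Benjamini-Hochberg adjustment across these rows. The SE derives from the F statistic, and intervals are 1.96 SE to either side. The p-values measure the spread between mice, 1 library each. Ratios used counts plus 0.5, and ratios and shares were compared by exact permutation tests. In simulated counts for 16942 genes with 200 changed, 193 were recovered with 14 false calls. The changed genes were few, well counted and changed by larger factors than Npr1. The simulation therefore does not cover small differences or a change as broad as that in these data.

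The genes and lists were chosen with earlier results of these data known. Genes named are the 6 genes, the fixed lists, the 3 named neighbours on each side of the locus (1 of which is not reported here) and the 3 closest correlates of each gene. Alternatives were other normalisations and filters, DESeq2 1.42.0, voom in limma 3.58.1, a replicate block, each library left out and lengths from the length column. Summing Nppa with its antisense row was added after the data were seen.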

Additional observations from a re-analysis of the deposited data

Results flagged for a closer look

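In 6 of 32 groups of 6 libraries examined, the highest or lowest library lay apart from the others by Dixon's test at its 95% level, where chance would give about 1.6. KO replicate 3 was the library in 5 of them, which share the same genes and are not independent. Its Npr1 level was 43.9 CPM, against 59.1 to 64.1 CPM in the other KO libraries. Its log2 ratio of Npr2 to Npr1 counts was 0.77, against 0.18 to 0.32. Its Npr1 share of receptor FPKM was 34.6%, against 42.6% to 45.4%, and its Npr2 share was 54.5%, against 46.9% to 49.4%. Its log2 ratio of Corin to Nppb counts was -2.16, against -3.38 to -2.95. The remaining library was KO replicate 1, with 2.73 CPM of Sdhaf4 against 2.25 to 2.41 CPM in the other KO libraries.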

How the results depend on the processing

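Of 324 recomputed values, 318 kept their direction and side of the threshold (for counts, stayed within 1.5 times), 5 newly passed the threshold and 1 reversed. The Npr1 share of receptor transcripts, 1.67 percentage points higher in KO by FPKM, was -0.15 with the length column (adjusted p = 0.933). When single libraries were left out, Npr1 had log2 fold changes of 0.14 to 0.24, the log2 ratio of Npr2 to Npr1 was -0.29 to -0.17, and the Npr1 share differed by 1.00 to 3.16 percentage points, with passes without KO replicate 3 (all 3 values) and without WT replicate 2 (the first 2). Nppa stayed at 5.54 to 5.85, Nppb at 2.45 to 2.65, Npr3 at 0.74 to 0.97 and Corin at -0.99 to -0.81. Libraries of the same replicate number had correlations of -0.162 to 0.0243 in their deviations, which shows no pairing of the mice but cannot exclude one. With a replicate block the log2 fold changes were 5.73 for Nppa, 2.57 for Nppb and 0.17 for Npr1. They were -0.03 for Npr2, 0.92 for Npr3 and -0.89 for Corin, with no call altered. The genes under 1 CPM rest on few counts, and 6 mice a group leave small differences such as that of Npr1 unresolved.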

Other observations

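Within a genotype, the levels of the 6 genes did not follow each other closely enough to pass a correction. Over 15 pairs in each of 2 genotypes, 30 relations in all, no Pearson correlation passed (smallest adjusted p = 0.25, permutation test) and no Spearman correlation did (smallest adjusted p = 0.5). The strongest was that of Npr1 with Npr3 in WT, with r = -0.90 (exact permutation p = 0.00833) and rho = -0.94 (exact permutation p = 0.0167) over 6 libraries, and r = -0.71 without the 2 libraries farthest from the median. Nppa and Nppb had r = 0.63 in WT and 0.63 in KO, but -0.27 and -0.68 without the 2 of 6 libraries farthest from the median of Nppa. Leaving these out narrows the range of Nppa and keeps few libraries. The lower values therefore do not decide whether the relation rests on the libraries left out.

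Npr1 and Npr2 each overlap a row without a name on the opposite strand, with a mean of 24.2 counts in WT and 42 in KO at Npr1, and 38.5 and 53.5 at Npr2. Corin overlaps 5 rows without a name, on either strand, the most counted of which lies on the opposite strand and had a mean of 140 counts in WT and 97.7 in KO. Nppb and Npr3 overlap none in the deposited table.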
